A study of Mus musculus with 7 samples.

Results

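10 genes known as targets of hypoxia-inducible factor (HIF) outside the glycolytic pathway, Bnip3, Bnip3l, Hilpda, Ndrg1, Ankrd37, Kdm3a, Ddit4, Mxi1, Fam162a and Higd1a, were examined in pancreatic cancer-associated fibroblasts (CAFs). They were chosen by name, with earlier results of these data known. Each of the 10 was found among the 12771 genes of the count table. The CAFs came from tumors that grew in the pancreas of C57BL/6 mice (C57BL/6 J in the study's methods), males of 8 weeks at injection, and were collected 2 to 3 weeks later. Mice of both groups received KPC cells, a mouse pancreatic cancer line. In the shBrca2 group these cells carried a short hairpin RNA against Brca2, and in the shControl group a non-targeting hairpin. The shControl group had 3 libraries, labelled replicates 1, 2 and 4, and the shBrca2 group had 4. The hairpin acted in the injected cancer cells and not in the fibroblasts of the host, so that Brca2 counts in the CAFs could not serve as a check of the knockdown. CAFs were defined by the sort: after collagenase digestion, live cells without CD45, CD31 and EpCAM and with podoplanin (PDPN) were taken, and their poly(A) RNA was read at the 3' end by a variant of MARS-seq.

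HIF is a transcription factor of an oxygen-sensitive alpha subunit, such as HIF-1α (Hif1a) or HIF-2α (Epas1), and a constant partner. When oxygen is present, prolyl hydroxylases (the Egln genes) mark the alpha subunit for destruction; when oxygen is scarce the dimer binds hypoxia response elements, whose core is ACGTG or GCGTG. Its glycolytic targets change how a cell makes ATP, while the 10 genes here are listed outside glycolysis. Most act on mitochondria and their removal (Bnip3, Bnip3l, Fam162a, Higd1a), on stored fat (Hilpda), on the growth kinase mTORC1 (Ddit4), or on transcription, chromatin and cell stress (Mxi1, Kdm3a, Ndrg1). Ankrd37, an ankyrin repeat protein, is given no such role here.

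The core motif was looked for on both strands of the 250 bases before each start site annotated by RefSeq on GRCm38.p6. An ACGTG can be part of the E-box CACGTG, which other factors bind. All 8 members with an entry in the promoter table held the motif before at least 1 start, as did 38.6% of all 32851 promoters and 60.9% of the 10086 genes of the count table with an entry. Bnip3l and Ndrg1 had no entry. Fam162a held 6 motifs, Bnip3 held 5 and Ankrd37 held 4, and 2.58% of all promoters held 4 or more. Hilpda had 3 before its downstream start and 0 before the other one, Ddit4 and Higd1a had 2 each, and Kdm3a and Mxi1 had at most 1 before any start. These are matches per strand, with overlapping ones counted separately, and not separate sites. The ACGTG matches of Bnip3 were the opposite strands of the same E-box CACGTG. In Ankrd37, GCGTG matches of opposite strands overlapped, and the 2 matches of Higd1a shared a base.

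The stretches below are shown because they hold motifs of the 4 members called whichever library was left out, of Ddit4 and of Higd1a, whose level hardly differed between the groups. Each is written 5′ to 3′ in the direction of the gene, with the motif letters of either strand in capitals (CACGT and CACGC are ACGTG and GCGTG read on the other strand). The Bnip3, Ddit4 and Higd1a stretches are the last 120 bases before the start, a length in which 24.9% of all promoters held a motif.
Bnip3, chr7:138909507-138909626, minus strand: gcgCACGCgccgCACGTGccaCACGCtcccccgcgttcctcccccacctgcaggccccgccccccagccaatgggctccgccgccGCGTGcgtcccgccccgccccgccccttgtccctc
Hilpda, chr6:29272571-29272600, plus strand, inside the gene and before its downstream start: gatggccagcggACGTGccccagggcgagc
Ankrd37, chr8:45999851-45999880, minus strand, inside the gene and directly before an internal start: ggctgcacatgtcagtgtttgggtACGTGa
Fam162a, chr16:36071613-36071642, minus strand, upstream of the gene: CACGTcccgCACGCccgctgcgtCACGCcg
Ddit4, chr10:59951771-59951890, minus strand: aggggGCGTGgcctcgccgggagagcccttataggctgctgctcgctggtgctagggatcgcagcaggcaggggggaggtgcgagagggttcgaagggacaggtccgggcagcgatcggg
Higd1a, chr9:121857797-121857916, minus strand, also overlapped by the lncRNA gene Gm47112: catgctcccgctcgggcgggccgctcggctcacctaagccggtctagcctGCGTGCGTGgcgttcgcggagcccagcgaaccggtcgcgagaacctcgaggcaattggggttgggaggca
The motif was thus present before genes that were higher in shBrca2 CAFs and also before Higd1a and Kdm3a, which were not called. A match of letters is a description of these windows, and no binding was measured.

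Total counts ran from 1898679 to 5990579 per library, with shBrca2 replicate 3 the shallowest, and 12511 to 12722 genes had a count. Ankrd37 had the lowest counts of the 10 members in shControl replicate 2, at 17, and Higd1a in shBrca2 replicate 3, at 19, while Ddit4 reached 2551. Counts below are normalized with the size factors of DESeq2. The call of a gene took 3 conditions: a DESeq2 adjusted p below 0.1, a log2 fold change beyond 0.5 in size, and a mean normalized count above 5. The labels do not tie a library to a mouse, while the study describes the libraries of each group as separate mice. On that reading the p-values measure the spread between mice that received the same cells. The study's methods describe a Brca2 hairpin and a non-targeting control vector, without further hairpins. Differences between hairpins or between transduced lines are therefore not covered by the p-values. In bulk RNA, more RNA of a gene per cell and a larger share of cells with that RNA cannot be told apart.

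To ask whether the CAFs of Brca2-silenced tumors differed in this side of the HIF response, shBrca2 was compared with shControl. 7 of the 10 members were called higher in shBrca2 CAFs (Bnip3, Hilpda, Ankrd37, Fam162a, Mxi1, Ddit4 and Ndrg1), where 3.77% of the 12768 tested genes were. Lower calls numbered 0 by DESeq2 and by edgeR, where 5.27% of all genes were called lower by DESeq2, and 0 members were lower at an unadjusted p under 0.05. The median log2 fold change of the members was 0.76, beside 0.01 over all genes. 10 of 10 were above 0, as were 6492 of the 12768 tested genes. Bnip3l and Higd1a were barely so, at 0.13 and 0.05. In 7 of 10 members every shBrca2 library lay above every shControl library, which held for 7.79% of all genes; these were the called members other than Ddit4, and Kdm3a. Bnip3, Hilpda, Ankrd37 and Fam162a were called whichever single library was left out. Without shControl replicate 1 these 4 members were the ones called, since Ddit4, Mxi1 and Ndrg1 then missed the threshold (DESeq2 adjusted p = 0.15, 0.25 and 0.31). In the same libraries the summed normalized counts of epithelial markers were 384 to 1142 in shControl and 1434 to 2017 in shBrca2, and those of mesothelial markers were 2123 to 6439 and 9540 to 11247. Their part in the member values was not tested.

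**Figure D1:**
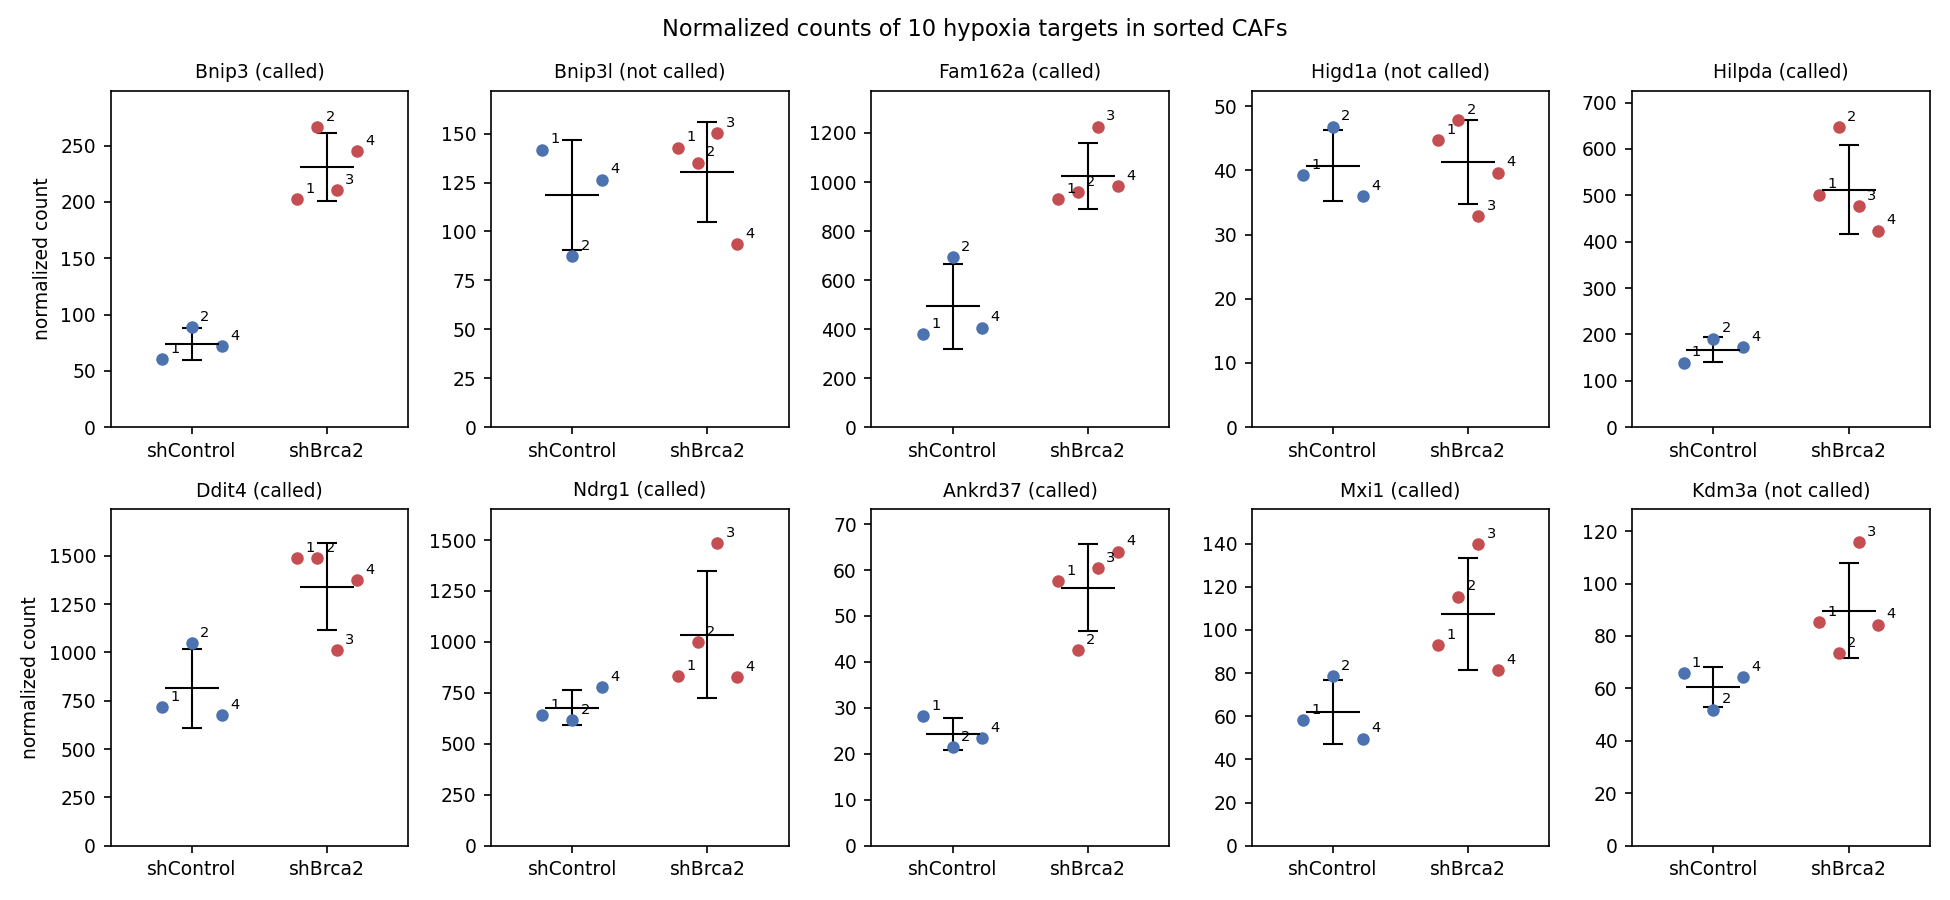
Normalized counts (vertical axes, from 0) of the 10 members in the 3 shControl (blue) and 4 shBrca2 (red) libraries, with replicate numbers beside the points and lines at the mean ± SD. The groups stand apart for Bnip3 and Hilpda, overlap at shControl replicate 2 and shBrca2 replicate 3 for Ddit4, and coincide for Higd1a.

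Bnip3 (chromosome 7, 138890836 to 138909506), a mitochondrial outer membrane protein that recruits the autophagy machinery and so starts mitophagy, changed most. It had 60.6, 88.6 and 72 normalized counts in the controls (replicates 1, 2 and 4, the order used throughout). In shBrca2 replicates 1 to 4 there were 202, 266, 211 and 245. Even the lowest shBrca2 library was above the highest control by more than the range of the controls. Bnip3 thus rose 3.17-fold, from 73.7 ± 14.0 (SD, n = 3) to 231 ± 29.9 (SD, n = 4), on the log2 scale by 1.67 ± 0.22 (standard error, SE, DESeq2 adjusted p = 5.3e-11). Leaving out single libraries gave 1.53 to 1.81. By edgeR the adjusted p was far larger, at 0.0026.

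Its paralogue Bnip3l (chromosome 14, 66985238 to 67008877), also called NIX and known as the mitophagy receptor of maturing red cells, was not called. Counts were 142, 87.3 and 126 in shControl and 143, 135, 150 and 93.5 in shBrca2. The groups overlapped, with the lowest value of each well below its fellows. The log2 fold change was 0.13 with a 95% interval of -0.36 to 0.61 (DESeq2 adjusted p = 0.88), and its sign turned without shControl replicate 2, at -0.047. A pseudogene named Bnip3l-ps lies on chromosome 12, and whether reads were split between the copies is not given in the sources used here.

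Dividing one paralogue by the other within each library takes out depth. There were 0.431, 1.01 and 0.573 Bnip3 counts per Bnip3l count in shControl, after 1 was added to each count, and 1.41, 1.97, 1.40 and 2.60 in shBrca2. So Bnip3 gave the fewer counts in shControl replicates 1 and 4, about as many in replicate 2, and the more counts in every shBrca2 library. On the log2 scale the ratio was -0.67 ± 0.63 (SD, n = 3) against 0.83 ± 0.43 (SD, n = 4), which is 1.5 higher in shBrca2. A two-sided exact permutation test gave p = 0.057 (0.057 adjusted over the 2 ratios tested), the smallest value that the 35 divisions of 7 libraries allow, so that the design could not reach 0.05. Both ratios are built on members chosen with earlier results known, and Bnip3 and Hilpda were called higher in the same libraries. Their p-values are thus not separate support for a difference.

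Fam162a (chromosome 16, 36043844 to 36071561), a mitochondrial protein linked to cell death under hypoxia, had 380, 693 and 406 normalized counts in shControl. In shBrca2 it had 931, 958, 1226 and 982. Control replicate 2 was far above the other controls and still below each shBrca2 library. Fam162a rose 2.08-fold (log2 fold change 1.06 ± 0.23 SE, DESeq2 adjusted p = 0.0005, edgeR adjusted p = 0.017). The estimate was 1.38 without shControl replicate 2 and at least 0.90 without any other library. Of its 3741 exon bases 1056 are shared with Wdr5b on the opposite strand, and the strand setting of the counting is not given. Wdr5b had 4 to 17 reads per library, against 417 to 1644 for Fam162a, and it was not called, at 0.35 on the log2 scale (DESeq2 adjusted p = 0.83).

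Higd1a (chromosome 9, 121848557 to 121857796), an inner mitochondrial membrane protein that acts on the respiratory chain, was nearly level. It had 39.3, 46.8 and 36 normalized counts in shControl and 44.7, 47.8, 32.8 and 39.6 in shBrca2. The range of the shBrca2 libraries held that of the controls. The log2 fold change was 0.05 with a 95% interval of -0.50 to 0.61 (DESeq2 adjusted p = 0.95), and at 19 to 82 reads per library a change within these bounds was not detectable. It turned to -0.038 without shBrca2 replicate 2 and to -0.033 without shControl replicate 4.

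Around these 4 genes, 21 other genes of mitophagy and of the BCL2 family, to which Bnip3 and Bnip3l belong by their BH3 motif, had a median log2 fold change of 0.00. 2 were called, both lower. Mcl1, an anti-death BCL2 protein, fell by 0.61 on the log2 scale (DESeq2 adjusted p = 0.055) and Pink1, the kinase of the ubiquitin route to mitophagy, fell by 0.60 (DESeq2 adjusted p = 0.064). Both overlapped between groups. Each call was lost without shBrca2 replicate 1 or 4 or shControl replicate 1 or 4, and that of Pink1 also without shBrca2 replicate 2 (DESeq2 adjusted p = 0.15 to 0.38 over these fits). Fundc1, the other mitophagy receptor tied to hypoxia, was not called at 0.55 ± 0.45 (SE). Bcl2l1 (BCL-XL) and Rheb, binding partners of Bnip3, stood at 0.22 ± 0.20 (SE) and 0.04 ± 0.21 (SE), neither called. Higd2a, a relative of Higd1a, was at 0.12.

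Hilpda (chromosome 6, 29272488 to 29275449), a small lipid droplet protein that inhibits the triglyceride lipase ATGL (Pnpla2), was nearly as different as Bnip3. Its normalized counts were 139, 191 and 172 in shControl and 502, 647, 477 and 424 in shBrca2. The lowest shBrca2 value was over the highest control by more than the whole control range. Hilpda rose 3.08-fold, from 167 ± 26.2 (SD, n = 3) to 512 ± 95.5 (SD, n = 4), on the log2 scale by 1.62 ± 0.21 (SE, DESeq2 adjusted p = 5.3e-11). Its edgeR adjusted p was also far larger, at 0.0026.

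Calls among its partners went in both directions. Over 13 lipid droplet genes the median log2 fold change was -0.03, with 1 gene called higher and 1 lower. Without shControl replicate 4 the median was 0.38 and 3 genes were called higher, Fabp4 and Cav1 being added. Mgll, the lipase of the last step of triglyceride breakdown, rose by 1.82 ± 0.26 (SE, DESeq2 adjusted p = 3.5e-09). G0s2, like Hilpda an inhibitor of ATGL, was lower, at -1.45 ± 0.28 (SE, DESeq2 adjusted p = 2.1e-05). The 2 ATGL inhibitors were hence called in opposite directions, each in every fit that left out a library. Plin2, which coats lipid droplets, did not overlap between groups at 166 ± 5.74 (SD, n = 3) and 233 ± 26.5 (SD, n = 4), but missed the fold minimum on the log2 scale at 0.495 (DESeq2 adjusted p = 0.065). Pnpla2 itself was at 0.33 ± 0.28 (SE) and its coactivator Abhd5 at -0.34 ± 0.35 (SE), neither called.

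Set against its target, Hilpda had 1.41, 3.38 and 1.47 counts per Pnpla2 count in shControl and 5.90, 5.32, 3.38 and 3.70 in shBrca2. Control replicate 2 and shBrca2 replicate 3 were practically equal. The log2 ratio was 0.94 ± 0.71 (SD, n = 3) against 2.15 ± 0.39 (SD, n = 4), and so 1.22 higher. The exact permutation test, two-sided, again gave the smallest possible p of 0.057 (0.057 after adjustment over the 2 ratios). With 0.5 in place of 1 added to each count, the order of those libraries changed and the exact p was 0.11.

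**Figure D2:**
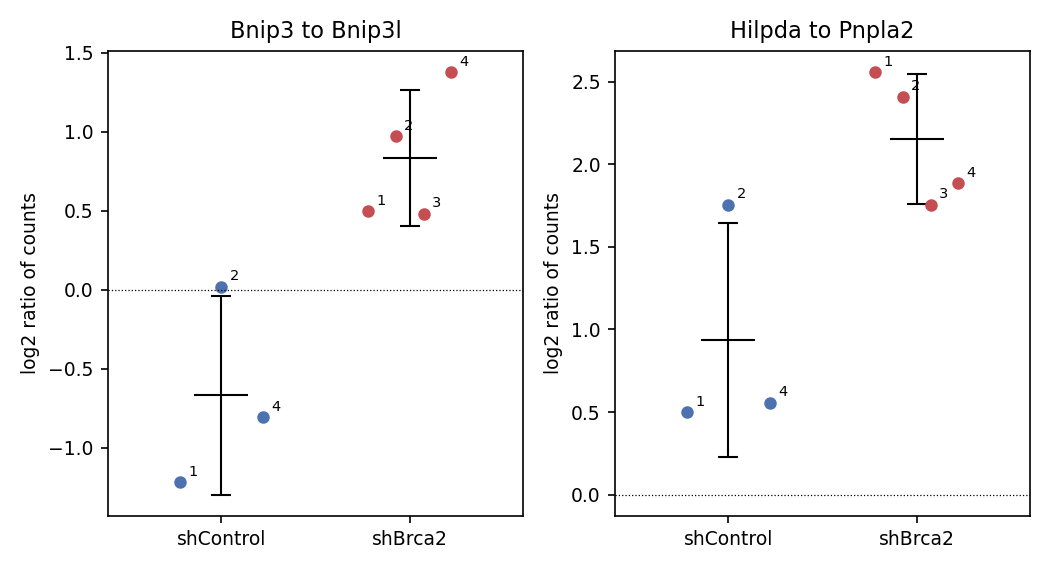
Log2 ratio of counts (vertical axes) of Bnip3 to Bnip3l (left) and of Hilpda to Pnpla2 (right) in each library, with lines at the group mean ± SD and a dotted line at equal counts. The left ratio is above 0 in the 4 shBrca2 libraries; on the right, shControl replicate 2 and shBrca2 replicate 3 lie at one height.

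Ddit4 (chromosome 10, 59949675 to 59951770), also called REDD1, holds back mTORC1 through the TSC1 and TSC2 complex. It had 716, 1050.0 and 676 normalized counts in shControl and 1487, 1487, 1010.4 and 1374 in shBrca2. Here shControl replicate 2 exceeded shBrca2 replicate 3, so the groups overlapped. Ddit4 rose 1.65-fold with a log2 difference of 0.72 ± 0.21 (SE, DESeq2 adjusted p = 0.018). That call was lost without shBrca2 replicate 1, shControl replicate 1 or shControl replicate 4 (DESeq2 adjusted p = 0.11, 0.15 and 0.16). Without shControl replicate 2 the log2 fold change was 0.95.

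Ddit4 is also known to answer to amino acid and ER stress through ATF4 and to glucocorticoids. Of 14 other ATF4 targets 2 were called, both lower: Atf5, itself a stress transcription factor, fell by 0.80 on the log2 scale (SE 0.17, DESeq2 adjusted p = 8.6e-05) and Ppp1r15a, which restarts translation, by 0.64 (DESeq2 adjusted p = 0.065). Among 12 glucocorticoid targets the median was -0.29 and 2 were called lower, Zbtb16 at -1.32 (DESeq2 adjusted p = 0.095) and Cebpd at -1.31 (DESeq2 adjusted p = 0.056), from means of 22.5 and 31.9 normalized counts in shControl. The calls of Ppp1r15a, Zbtb16 and Cebpd were each lost without shBrca2 replicate 1 or 4 or shControl replicate 1 or 4, and those of Ppp1r15a and Cebpd also without shBrca2 replicate 2 (DESeq2 adjusted p = 0.11 to 0.42 over these fits). The 16 other genes of the mTORC1 axis had a median of -0.01, and 1 was called: Depdc5, part of the GATOR1 complex that also restrains mTORC1, rose by 1.14 ± 0.32 (SE, DESeq2 adjusted p = 0.011), though not without shControl replicate 1 (DESeq2 adjusted p = 0.11). Tsc2 at -0.31, Txnip at -0.50 and the paralogue Ddit4l at 0.77, the last with an SE of 0.73 and mean normalized counts of 3.56 and 6.42, were not called.

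Ankrd37 (chromosome 8, 45996908 to 46000414), an ankyrin repeat protein often listed among hypoxia markers, was a low-count gene. It had 28.2, 21.5 and 23.3 normalized counts in shControl and 57.7, 42.5, 60.4 and 64 in shBrca2. The groups stood apart. Ankrd37 rose 2.26-fold (log2 fold change 1.18 ± 0.31 SE, DESeq2 adjusted p = 0.0041). Of its 1874 exon bases 1156 are shared with Ufsp2 on the opposite strand. Ufsp2, at 120 to 485 reads per library, was not called, with 0.12 on the log2 scale (DESeq2 adjusted p = 0.84).

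Ndrg1 (chromosome 15, 66929318 to 66969641), a cytoplasmic protein induced by many stresses and by differentiation, was the called member with the largest adjusted p. Its normalized counts were 640, 616 and 777 in shControl and 832, 998, 1485 and 827 in shBrca2. All shBrca2 libraries were above the controls, but replicates 1 and 4 only slightly, while replicate 3 was far above the other libraries. The log2 fold change was 0.61 ± 0.23 (SE, DESeq2 adjusted p = 0.095). It dropped to 0.39 without shBrca2 replicate 3, and the call was lost there and without shBrca2 replicate 2 or shControl replicate 1 or 2 (DESeq2 adjusted p = 0.12 to 0.31). By edgeR it was not called either (adjusted p = 0.13). Of its relatives, Ndrg2 was called higher at 0.75 ± 0.21 (SE, DESeq2 adjusted p = 0.012), a call lost without shControl replicate 1 (DESeq2 adjusted p = 0.16), and Ndrg3 was at -0.38 and not called (DESeq2 adjusted p = 0.21).

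Mxi1 (chromosome 19, 53310128 to 53373293) encodes a repressor that competes with MYC for its partner MAX. It had 58.1, 78.4 and 49.6 normalized counts in shControl and 92.9, 115, 140 and 81.3 in shBrca2. The gap between the groups was small, with shBrca2 replicate 4 just over shControl replicate 2. Mxi1 rose 1.73-fold (log2 fold change 0.79 ± 0.27 SE, DESeq2 adjusted p = 0.051). The call was kept only without shBrca2 replicate 4 or shControl replicate 2, and was lost in the other 5 such fits (DESeq2 adjusted p = 0.12 to 0.31).

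Myc itself was the one gene called of the 12 others in this network. Its log2 fold change was -1.64 ± 0.54 (SE, DESeq2 adjusted p = 0.04), from 1384 ± 727 (SD, n = 3) to 446 ± 174 (SD, n = 4) normalized counts, with groups that overlapped, and the call was lost without shBrca2 replicate 4, shControl replicate 1 or shControl replicate 4 (DESeq2 adjusted p = 0.19, 0.24 and 0.24). Max was level at 0.02 ± 0.15 (SE) and Mxd4, another MYC antagonist, was at -0.14 ± 0.17 (SE).

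Kdm3a (chromosome 6, 71588970 to 71632990), a demethylase of lysine 9 of histone H3, was not called although its groups did not overlap. It had 65.8, 51.9 and 64.2 normalized counts in shControl and 85.2, 73.4, 116 and 84.4 in shBrca2. The highest value was that of the shallowest library, shBrca2 replicate 3. The log2 fold change was 0.53 with a 95% interval of 0.05 to 1.02 (unadjusted p = 0.031, DESeq2 adjusted p = 0.21). Among 15 other JmjC demethylases 0 were called by DESeq2 or by edgeR, 3 had an unadjusted DESeq2 p under 0.05, each higher (Kdm2b, Kdm5a and Kdm5b, named after their values were seen), and the median was 0.10. The closest relatives, Kdm3b at -0.04 and Jmjd1c at -0.08, were not called.

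**Figure D3:**
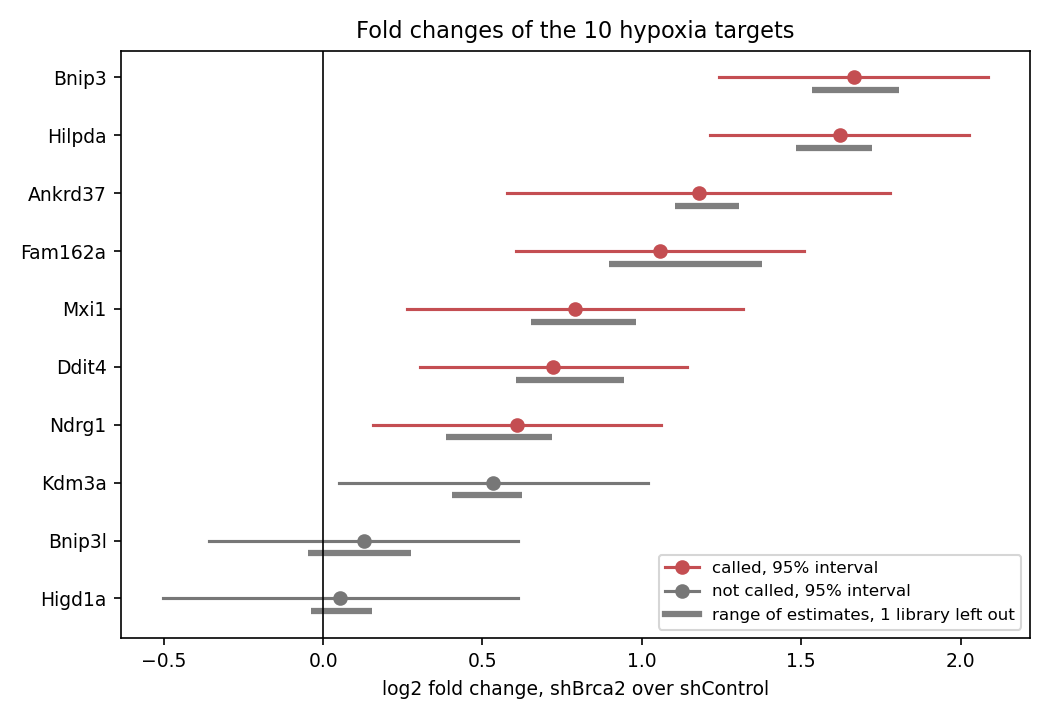
Log2 fold change of shBrca2 over shControl (horizontal axis) of each member, red where called and gray where not, with thin lines for the 95% interval of the fit and thick gray bars for the range of estimates with 1 library left out. Bnip3 and Hilpda lie highest at 1.67 and 1.62, and for Bnip3l and Higd1a both kinds of line cross 0.

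Within groups, the libraries kept no single order over the members. In shControl, replicate 2 was the highest of the 3 for 6 members and the lowest for 4. In shBrca2, replicate 3 was the highest of the 4 for 5 members and the lowest for 2, while replicate 4 was the lowest for 4 and the highest for 1. Ddit4 and Ndrg1 show the contrast: shBrca2 replicate 3 was last for Ddit4 and first for Ndrg1.

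The upstream part of the pathway was mixed. Of 12 HIF subunits, sensors and modulators 3 were called. Egln3, a prolyl hydroxylase that is itself a HIF target, rose by 2.67 ± 0.33 (SE, DESeq2 adjusted p = 5.3e-11). Epas1 was lower at -1.33 ± 0.27 (SE, DESeq2 adjusted p = 7.0e-05), and Cited2, which competes with HIF for its coactivator, fell by 0.79 (DESeq2 adjusted p = 0.042), with groups that overlapped. The Cited2 call was lost without shBrca2 replicate 1 or 4 or shControl replicate 1 (DESeq2 adjusted p = 0.20, 0.15 and 0.35). Hif1a and the main sensor Egln1 were not called, at 0.12 ± 0.31 (SE) and 0.26 ± 0.22 (SE). These are RNA levels, and the HIF alpha proteins are set mainly by their breakdown, which was not measured.

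Of the other HIF targets, 20 genes listed as glycolytic had a median log2 fold change of 0.58. In it, Gapdh had 1286, 53.1 and 23.3 normalized counts in shControl and 979, 969, 43.2 and 63 in shBrca2. The reason for this split, which ran across both groups, was not tested. Pgk1 had only 7 to 29 reads per library. The list also holds genes of glucose transport, glycogen and lactate. 4 were called higher: the glucose transporters Slc2a3 (1.53) and Slc2a1 (1.15), the glycogen gene Gbe1 (1.14) and the glycolytic enzyme Tpi1 (0.64). Tpi1 was called in 2 of 7 fits without a library, those without shBrca2 replicate 3 or shControl replicate 2, and Gbe1 in 6 of 7, all but the one without shControl replicate 1. The count of this list rested on single controls: it was 2, with a median of 0.44, without shControl replicate 1, and 14, with a median of 0.85, without shControl replicate 2. The 10 genes added by the latter were Gpi1, Pfkl, Pfkfb3, Aldoa, Pgam1, Eno1, Pkm, Ldha, Slc16a3 and Gys1, named after their values were seen. The 19 targets listed as secreted, matrix or acid balance genes had a median of -0.01 (0.32 without shControl replicate 2). Calls were in both directions, and the list also holds Ero1l, an enzyme of the ER. Car9 rose by 3.18 ± 0.35 (SE), Ero1l by 2.47 ± 0.49 (SE), Car12 by 2.45 ± 0.85 (SE) and Pgf by 1.63 ± 0.35 (SE), and Vegfa and Mif were also called higher, Vegfa at 0.89 ± 0.21 (SE). Mif was not called without shControl replicate 1 or 4 (DESeq2 adjusted p = 0.16 and 0.17). Of the 7 fits without a library, 1 called Car12, the one without shControl replicate 2. In this list Edn1 and Adm were called lower, at -2.08 ± 0.34 (SE) and -1.30 ± 0.29 (SE). Over 15 further targets the median was 0.01 and 1 was called, Bhlhe40 at 0.61 ± 0.17 (SE, DESeq2 adjusted p = 0.012, and 0.12 without shControl replicate 1).

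**Figure D4:**
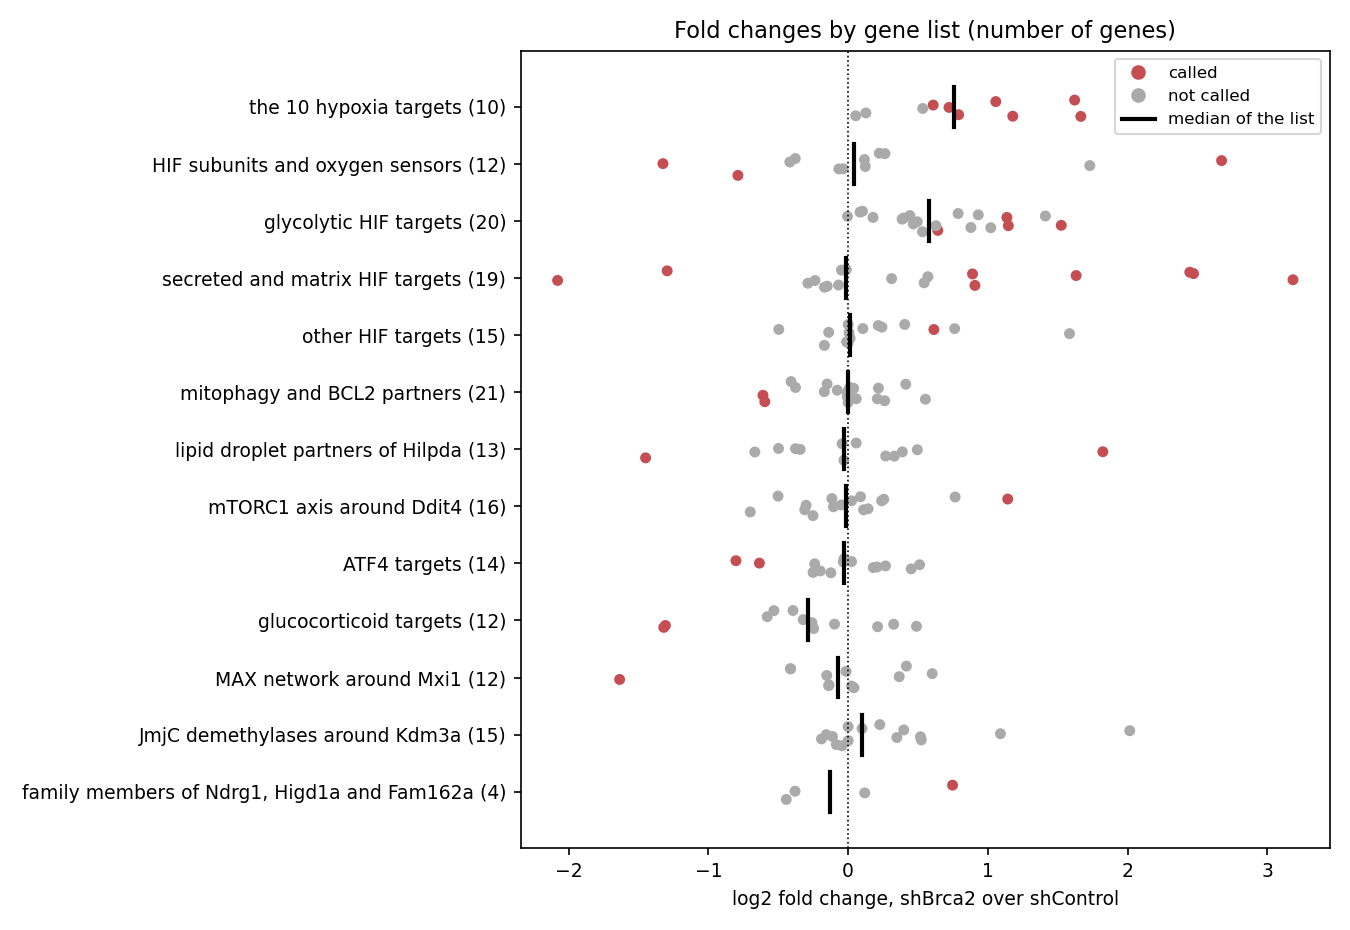
Log2 fold change of shBrca2 over shControl (horizontal axis) of the genes in the member list and 12 lists around it, with the number of genes tested in parentheses, called genes in red and the list median as a black bar. The member and glycolytic medians are 0.76 and 0.58, and the other medians drawn lie between -0.29 and 0.10. The lists of cell markers, dissociation and proliferation are not drawn. Their medians run from -2.37 (acinar) to 3.14 (erythroid), with 1.17 for epithelial and 0.70 for mesothelial markers.

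Markers of other cells moved with the comparison as well. Summed normalized counts of 10 fibroblast markers were 125620 to 144438 in shControl and 100464 to 120032 in shBrca2, with Dcn and Lum called lower, so that fibroblast RNA was abundant in every library. Of the 6 epithelial markers in the table, of 10 listed, 4 keratins (Krt8, Krt18, Krt19 and Krt7) were called higher, and of 9 mesothelial markers, of 10 listed, 3 were (Slpi, Ezr and Krt19 again). For 9 pericyte and smooth muscle markers the sums were 807 to 1355 and 1342 to 1773 with 3 called higher (Notch3, Acta2 and Des). Sums of 10 immune markers, of 14 listed, were 326 to 346 and 404 to 517, with Csf1r and C1qa called higher and the plasma cell genes Jchain and Mzb1 lower. Sums of 11 acinar markers, of 14 listed, were 179 to 306 and 107 to 168, with Cela1 called higher and 5 genes lower. Endothelial (5 of 8 in the table, sums 126 to 182 and 123 to 144) and erythroid markers (3 of 10, sums 152 to 249 and 203 to 241) overlapped between groups. Of the endothelial genes 0 were called by DESeq2 and 1 by edgeR, lower, with 2 lower at an unadjusted DESeq2 p under 0.05, and of the erythroid genes Alas2 was called higher. Many of these calls rested on single libraries. With 1 library left out, 2 to 4 epithelial, 2 to 6 mesothelial and 0 to 4 pericyte and smooth muscle markers were called higher. The 6 mesothelial calls were without shControl replicate 4, where the calls of Notch3, Acta2 and Des were all lost. C1qa was called only without shBrca2 replicate 3, and Krt19 only without shBrca2 replicate 2 or shControl replicate 4. Krt7 was not called without shBrca2 replicate 1 or shControl replicate 1, Des without shBrca2 replicate 1 or shControl replicate 1, Acta2 without shBrca2 replicate 4, and Mzb1 without shControl replicate 4. Of the fibroblast markers, Dcn was not called without shBrca2 replicate 1 or 4 or shControl replicate 1 or 4, and Lum without shControl replicate 1. Lower calls among acinar markers numbered 1 without shControl replicate 1, where Cela3b had no adjusted p and Cela1 was not called, and 3 to 5 without another library. By edgeR, Krt19, C1qa and Dcn were not called. No listed marker in the table was at 0 in every control. Epcam, Cldn4, Esrp1, Ocln and Ptprc had no row in the count table and so were not analysed. The part of these other cells was likewise not tested.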

How the data were processed

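Libraries were made from the RNA of sorted CAFs by a variant of MARS-seq. The authors deposited 1 table of raw counts per gene symbol, whole numbers that were not normalized. The submitters' notes name bcl2fastq, cutadapt, STAR 2.4.2a, HTSeq, DESeq2 and the build mm10. Annotation, strand setting and collapsing of molecular barcodes are not given in the sources used here, so that counts may hold PCR copies. Each of the 12771 listed genes had a count of 6 or more in at least 1 library.

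Groups were taken from the labelled Brca2 status of the KPC cells. The counts of all 7 libraries were fitted in DESeq2 1.42.0 under R 4.3.3, with the tool's size factors, and group was tested by likelihood ratio as in the study's methods. P-values were adjusted by Benjamini-Hochberg over all genes with one, 12768. Fold changes are unshrunken and carry standard errors, and 95% intervals are normal intervals of the fit. The 2 ratios of counts were tested by two-sided exact permutation (scipy 1.17.1). edgeR 4.0.16 served as an alternative, with 12 alternative fits in all: edgeR's quasi-likelihood test on TMM factors, the Wald test, TMM factors, a filter (10 counts in 3 libraries), the replicate block and each of 7 libraries left out. The scripts were tested on simulated data. The members, on which the 2 ratios are built, and the 23 gene lists were chosen with earlier results of these data known. Within most lists, the text names called genes by size of fold change, up to 4, and the direct relatives and partners of the members. From the list of secreted, matrix or acid balance genes every called gene is named. Some further genes are named because their call changed when a library was left out. Sequences and positions are those of RefSeq on GRCm38.p6, and all 10 members were matched by symbol. Shared exon bases come from GENCODE on GRCm39. Bnip3, Hilpda, Ndrg1, Mxi1 and Higd1a also share exon bases with lncRNA genes on the opposite strand, from 36 (Hilpda) to 683 (Higd1a) per lncRNA gene. Ankrd37 shares a further 369 with Lrp2bp and Fam162a a further 145 with Mix23. None of these partners is in the count table, so their levels could not be set beside the members.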

Additional observations from a re-analysis of the deposited data

How the results depend on the processing

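The 12 alternatives gave 120 fits of a member: in 101 the call and direction were as reported, in 16 a call was lost, and in 3, of members never called, the sign turned: with 1 library left out the log2 fold change ran from -0.047 (without shControl replicate 2) to 0.28 for Bnip3l, and from -0.038 (without shBrca2 replicate 2, or -0.033 without shControl replicate 4) to 0.15 for Higd1a. Bnip3, Hilpda and Fam162a were called under every alternative. Members called numbered 7 by the Wald test, TMM size factors and the low-count filter, 6 by edgeR and 4 to 7 with 1 library left out. The median of the members was 0.69 to 0.96 with 1 library left out, the highest without shControl replicate 2. Over all genes 481 were called higher and 673 lower, and with 1 library left out 261 to 610 and 354 to 695. The counts shrank by over 1.5 times without shBrca2 replicate 1 or 4 or shControl replicate 1, and for genes called lower also without shControl replicate 4. With the replicate block, which pairs libraries of the same number so that replicate 3 of shBrca2 has no partner, 211 higher and 280 lower genes passed, and 4 members were called, Bnip3, Hilpda, Ddit4 and Fam162a. Same-numbered libraries did not deviate together (correlations of -0.091, -0.13 and -0.14 over 9062 genes), so that the numbers are not read as pairs. Differently numbered pairs ran from -0.15 (shControl replicate 4 with shBrca2 replicate 1) to 0.26 (shControl replicate 4 with shBrca2 replicate 3). Whether libraries of the 2 groups shared a batch was not tested. The calls lost under the block were those of Ankrd37 (log2 fold change 1.16, adjusted p = 0.17), Mxi1 (0.65, adjusted p = 0.46) and Ndrg1 (0.39, under the minimum of 0.5, adjusted p = 0.62). Under the block the ratio of Bnip3 to Bnip3l differed by 1.62 and that of Hilpda to Pnpla2 by 1.35. With 1 library left out these ratios differed by 1.23 to 1.84 and by 0.997 to 1.63. The causes of these shifts were not tested. Precision is limited by 3 control libraries and, for Ankrd37 and Higd1a, by raw counts of 17 to 82 per library.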

Other observations

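The proliferation list, 15 genes of the cell cycle, had 14 positive log2 fold changes and a median of 0.62. 1 gene was called by DESeq2, Ccnb1 (adjusted p = 0.085), from 51.9 ± 20.8 (SD, n = 3) to 102 ± 40.2 (SD, n = 4) normalized counts, and 0 by edgeR. The Ccnb1 call was kept only without shBrca2 replicate 3 or shControl replicate 2 and was lost in the other 5 fits without a library (DESeq2 adjusted p = 0.18 to 0.32). Without shControl replicate 2 the list had 9 calls, each higher, and a median of 1.1, and without shControl replicate 1 it had 0 calls and a median of 0.36. 5 had an unadjusted DESeq2 p under 0.05, namely Ccnb1, Ccnb2, Birc5, Bub1 and Aurka. Of 15 genes known to respond to tissue dissociation 0 were called by DESeq2 or by edgeR, with Hspa1a, Hspa1b and Jund higher and Junb and Egr1 lower at an unadjusted DESeq2 p under 0.05 and a median of -0.10, and with 1 library left out at most 3 were called. The genes without a call were named after their values were seen.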
